A study of Danio rerio with 6 samples.

Results

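Creatine kinase genes, the genes for creatine uptake and synthesis, and the myoglobin gene were examined in adult zebrafish inner ear hair cells and in the cells around them. The members were chosen by gene symbol, with earlier results of these data known. They were the cytosolic creatine kinase genes ckba, ckbb, ckma and ckmb, the mitochondrial creatine kinase genes ckmt1, ckmt2a and ckmt2b, the creatine transporter gene slc6a8, the creatine synthesis gene gamt, and mb, which encodes myoglobin. All 10 were present among the 31387 genes of the deposited table, each with 1 entry, and 8 of them reached the level required for testing.

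RNA was sequenced from 2 samples of green fluorescent protein (GFP)-positive hair cells (replicates 1 and 2) and 1 sample of GFP-negative surrounding cells, each of 2000 cells pooled from the lagena, utricle and saccule. All fish were females 11 to 13 months old of the strain Tg(pou4f3:GAP-GFP)s273t, in which the pou4f3 promoter, taken from a transcription factor gene of hair cells, directs membrane-bound GFP. The surrounding cells were thus defined by lack of fluorescence and are a mixture of types. The labels also put WT in the names of the surrounding cell libraries and give hair cell replicate 2 another name prefix than the other samples, without an explanation of either. Each sample was sequenced as 2 technical replicates under 1 shared index, each called a library here, and these were averaged. The 2 libraries of a sample do not count as separate samples. The number of fish in each pool is not given in the sources used here.

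Creatine kinase moves phosphate between ATP and creatine, so that phosphocreatine serves as a fast reserve of ATP and carries energy from mitochondria to sites of use. In mammals the brain type and the muscle type are cytosolic enzymes, whereas the mitochondrial types sit in the space between the mitochondrial membranes and charge creatine with newly made ATP. Creatine is made by the enzymes of the genes gatm and gamt or is taken up from outside through the transporter of slc6a8. Myoglobin is a haem protein that binds oxygen, best known from heart and skeletal muscle, where it stores oxygen and eases its diffusion to mitochondria. Hair cells spend ATP on ion pumps, calcium extrusion and transmitter release.

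Expression values are RPKM, which scale the reads of a gene by the length of its model and by all mapped reads, so that levels can be compared between genes. The spacing of low RPKM values gave the number of mapped reads per library, which was 15843692 and 16058483 for hair cell replicate 1, 50791022 and 51566819 for hair cell replicate 2, and 17066800 and 17281834 for the surrounding cells. Each difference is the hair cell mean minus the surrounding cell value on log2(RPKM + 1), tested with limma and adjusted by the Benjamini-Hochberg method over 15803 genes. A gene counted as called where its adjusted p was under 0.05 and the log2 difference was 1 or more, up or down. The test measured spread in the pair of hair cell samples alone and assumed the same spread for the single sample of surrounding cells. The spread of each gene was moderated toward that of genes of like mean level. An SE given here is thus not the measured spread of that gene alone. The adjustment can tie genes of unlike unadjusted p, as it did for mb, ckbb and ckmt1, and an equal adjusted p does not rank them. With 2 samples against 1, no exact permutation test can reach a p below 0.333. Beside the counts of markers below, the shares over all genes tested were 17.7% higher and 18.0% lower by limma. In a fit of recovered reads they were 18.4% and 21.2%. All 13 hair cell markers examined, from pou4f3 to s100t, were called higher in the hair cell samples. Of the 13, 10 reached the 1 RPKM required for testing in the hair cells only. The level of the 13 markers in the surrounding cells was 0.0677% (s100s) to 1.01% (gfi1ab) of that in hair cells. Markers of supporting cells, the non-sensory cells between hair cells, had 6 of 9 tested members higher and 1 lower in hair cells, with summed levels of 1917 and 2164 RPKM in hair cell replicates 1 and 2, against 76.5 RPKM in the surrounding cells. Neuron markers had 3 of 5 tested higher and 0 lower by limma, 4 higher and 0 lower with recovered reads and 0 lower at an unadjusted p under 0.05. They summed to 173 and 156 RPKM in hair cell replicates 1 and 2, against 10.3 RPKM in the surrounding cells, with sncb giving most of the sum in hair cells, and neurod1 was at 0 in both hair cell replicates. Markers of epithelial cells (9 of 9), fibroblasts (9 of 10), endothelial cells (6 of 7), leukocytes (5 of 7) and Schwann cells (3 of 6) were lower, whereas the leukocyte marker lyz was higher. Of the lower markers, 3 epithelial, 5 fibroblast, 6 endothelial and 3 leukocyte markers reached 1 RPKM in the surrounding cells only. The marker lyz and 1 higher supporting cell marker reached it in the hair cells only. The part of these cell types in the results on the members was not tested.

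The members split evenly by direction. Of the 8 tested, mb, ckbb, ckmt1 and slc6a8 were called higher in hair cells and ckba, ckma, ckmb and gamt were called lower. In pooled cells such as these, fewer cells of a type and less RNA per cell cannot be told apart. Over all genes tested, 35.8% were called, 17.7% higher and 18.0% lower, so that a call by itself was common in this comparison. A fit of read counts recovered from the RPKM steps (limma-voom) called 39.6% of genes, 18.4% higher and 21.2% lower, and made the same 8 calls on the members. The median log2 difference of the tested members was -0.03, beside 0.15 over all genes tested. Among the 8, ckma and gamt reached a sample mean of 1 RPKM in the surrounding cells only and slc6a8 in the hair cells only, so that these 3 could pass the filter only through the group in which they were high. The genes ckmt2a and ckmt2b stayed under 1 RPKM in every biological sample and were not tested.

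**Figure D1:**
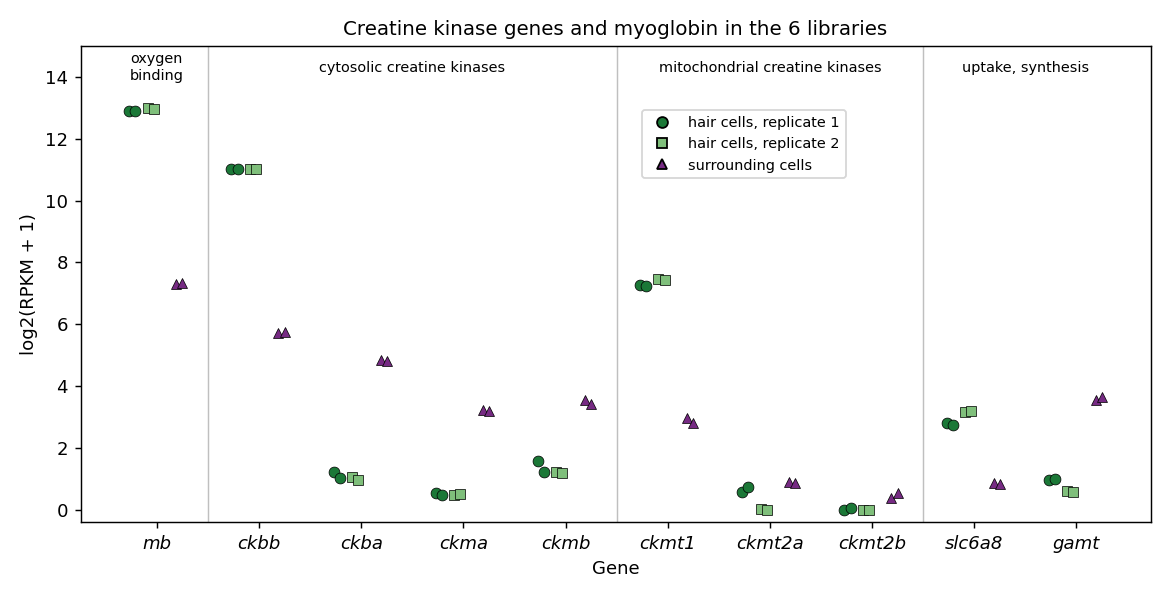
Levels of the 10 members as log2(RPKM + 1) on the vertical axis, with a marker for each of the 6 libraries (circles and squares for hair cell replicates 1 and 2, triangles for the surrounding cells). The hair cell libraries lie above the surrounding cell libraries for mb, ckbb, ckmt1 and slc6a8 and below them for ckba, ckma, ckmb, ckmt2a, ckmt2b and gamt, and those of mb reach 8073 RPKM.

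Myoglobin was among the most abundant transcripts of hair cells. The gene mb (ENSDARG00000031952, chromosome 1 of build GRCz10) stood at 7686 and 7665 RPKM in the 2 libraries sequenced for hair cell replicate 1, at 8073 and 8056 RPKM in those of replicate 2, and at 158 and 161 RPKM in those of the surrounding cells. Its rank by level among all 31387 genes was 5 in both hair cell replicates, against 240 in the surrounding cells. The hair cell libraries lay close to each other and far above those of the surrounding cells. On the RPKM scale, mb was 49.4-fold higher in hair cells. On log2(RPKM + 1) the difference was 5.62 (SE 0.31, limma adjusted p = 0.00719), and 99 of the genes tested had a larger one. Transcripts of mb took 2.14% and 2.15% of summed RPKM in hair cell replicates 1 and 2, against 0.0537% in the surrounding cells. The level of mb in the surrounding cells was 2.02% of that in hair cells, above the whole range given for the hair cell markers. So were those of ckbb (2.47%), ckmt1 (3.93%) and slc6a8 (11.8%). The markers were picked as genes of hair cells, and 10 of the 13 reached 1 RPKM in the hair cells only. Their low range was thus largely set by that choice, and no conclusion is drawn from it. For the lower members, the hair cell level was 4.02% (ckba) to 14.6% (ckmb) of that in the surrounding cells. Epithelial markers ranged from 0.00319% (krt97) to 26.9% (epcam) in that direction, with a median of 0.765%. The medians of fibroblast, endothelial and leukocyte markers were 2.52%, 2.35% and 11.4%. Carry-over between the cell groups was not tested.

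Most of the cytosolic creatine kinase transcript came from ckbb, 1 of the pair of zebrafish genes of the brain type. The gene ckbb (ENSDARG00000043257, chromosome 20) had 2099 and 2096 RPKM in the 2 libraries sequenced for hair cell replicate 1, 2094 and 2098 RPKM in those of replicate 2, and 51.1 and 52.4 RPKM in those of the surrounding cells. It ranked 15 and 17 in hair cell replicates 1 and 2, against 641 in the surrounding cells. The hair cell libraries nearly coincided and lay far above those of the surrounding cells. The hair cell mean was 2097±0.729 RPKM (mean±s.d., n = 2 replicates), and 1.08% of the genes tested were closer on the log2 scale. This closeness is a property of 1 pair of samples. The log2 difference of ckbb was 5.31 (SE 0.24, limma adjusted p = 0.00719), a 40.5-fold higher level in hair cells on the RPKM scale.

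The paralog ckba (ENSDARG00000069752, chromosome 13), also of the brain type, went the other way. It had 1.32 and 1.06 RPKM in the 2 libraries sequenced for hair cell replicate 1, 1.07 and 0.950 RPKM in those of replicate 2, and 27.7 and 27.2 RPKM in those of the surrounding cells. The averages of 1.19 and 1.01 RPKM in hair cell replicates 1 and 2 came from 97 and 264 reads, and that of 27.4 RPKM in the surrounding cells from 2402 reads. Both hair cell values were far below the surrounding cell value, which was 24.9-fold that of hair cells. The difference on the log2 scale was -3.76 (SE 0.27, limma adjusted p = 0.00726), and 285 of the genes tested had a lower one. Within a sample, the RPKM of ckbb was 1760 and 2073 times that of ckba in hair cell replicates 1 and 2, against 1.89 times in the surrounding cells. Such a ratio does not depend on the scaling between libraries. It does depend on how reads that match both genes were assigned, which is not given in the sources used here. For scale, ckbb had 131880 and 422923 reads in hair cell replicates 1 and 2, so that the level of ckba there is uncertain to that extent. On the log2(RPKM + 1) scale the ratio was 9.96±0.09 in hair cells (n = 2), against 0.89 in the surrounding cells. That form does depend on the scaling, since ckba was near 1 RPKM in hair cells.

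The muscle type genes ckma and ckmb were low in hair cells and higher in the surrounding cells, where they ranked 3712 and 3073 among all genes. The gene ckma (ENSDARG00000035327, chromosome 5) had 0.472 and 0.398 RPKM in the 2 libraries sequenced for hair cell replicate 1, 0.392 and 0.423 RPKM in those of replicate 2, and 8.40 and 8.17 RPKM in those of the surrounding cells. The hair cell libraries lay together, far below the others, and held 22 and 66 reads in replicates 1 and 2, against 451 reads in the surrounding cells. The log2 difference of ckma was -2.71 (SE 0.23, limma adjusted p = 0.00817). The gene ckmb (ENSDARG00000040565, chromosome 15) had 2.00 and 1.35 RPKM in the 2 libraries sequenced for hair cell replicate 1, 1.32 and 1.27 RPKM in those of replicate 2, and 10.8 and 9.65 RPKM in those of the surrounding cells. Both hair cell replicates lay below the single surrounding cell sample, and the first technical library of replicate 1 was above the other hair cell libraries. On the log2 scale it differed by -2.18 (SE 0.29, limma adjusted p = 0.0151), the smallest in size among the 4 lower members. The ratio of ckma to ckmb was -0.80±0.14 on the log2(RPKM + 1) scale in hair cells (n = 2), against -0.27 in the surrounding cells, so that ckmb was the more abundant of the pair in every sample. The ratio of ckbb to ckma was 10.5±0.02 on that scale in hair cells, against 2.51 in the surrounding cells. How reads that match several paralogs were assigned is not given in the sources used here, and the levels of ckma and ckmb are uncertain to that extent.

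Genes of skeletal muscle were set beside the muscle type kinases and myoglobin, since both are well known from muscle. Of 20 skeletal muscle markers tested, 13 were lower in hair cells and 3 higher, beside 18.0% lower and 17.7% higher over all genes tested. Of the 13 lower markers, 10 were under 1 RPKM in both hair cell replicates and passed the filter only through the surrounding cells. The lower count was 5 with a pseudocount of 5 RPKM and 6 with no filter or with a filter of 5 RPKM. The summed level of the 36 markers found was 49.1 and 54.5 RPKM in hair cell replicates 1 and 2, against 113 RPKM in the surrounding cells. The myosin light chain gene mylpfa had 0.328 and 0.00634 RPKM in hair cell replicates 1 and 2, against 12.3 RPKM in the surrounding cells, and smyhc1, a slow myosin heavy chain gene, was at 0 in every library. The parvalbumin genes pvalb1 and pvalb3 were lower, with log2 differences of -3.38 and -1.29. The higher markers were casq1b, tpm2 and desma, a desmin gene, with log2 differences of 1.41, 1.28 and 3.20. Both casq1b and desma were under 1 RPKM in the surrounding cells and passed the filter only through the hair cells. The higher count was 1 with a pseudocount of 5 RPKM, and 2 with recovered reads, where casq1b was not called. None of 8 heart markers reached the level for testing, and they summed to 0.211 and 0.0252 RPKM in hair cell replicates 1 and 2, against 1.58 RPKM in the surrounding cells. By the mean over the 3 samples, the most abundant were tnnt2a, nppa, tnni1b and myh6, with myl7, vmhc, cmlc1 and nppb at 0 in both hair cell replicates. In hair cells, the summed level of either list was thus far below that of mb alone. The part of muscle cells in the level of mb was not tested.

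**Figure D2:**
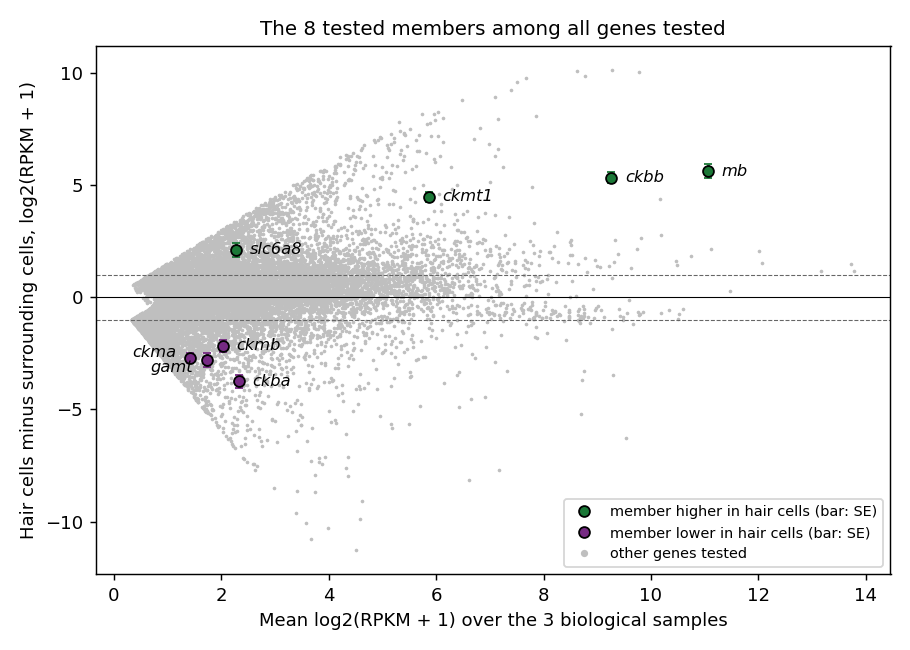
Log2 difference of each gene tested, hair cells minus surrounding cells on log2(RPKM + 1), against its mean log2(RPKM + 1) over the 3 biological samples. Coloured points with SE bars are the 8 tested members, of which mb, ckbb and ckmt1 lie at the upper right with differences of 5.62, 5.31 and 4.47, while ckba lies lowest at -3.76.

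Of the mitochondrial creatine kinases, ckmt1, whose mammalian counterpart is the ubiquitous mitochondrial form, was the abundant one. The gene ckmt1 (ENSDARG00000016598, chromosome 25) had 155 and 151 RPKM in the 2 libraries sequenced for hair cell replicate 1, 175 and 173 RPKM in those of replicate 2, and 6.81 and 6.02 RPKM in those of the surrounding cells. Both hair cell replicates lay above the single surrounding cell sample, and the hair cell mean was 163±14.5 RPKM (n = 2), 25.5-fold that of the surrounding cells. The difference on the log2 scale was 4.47 (SE 0.21, limma adjusted p = 0.00719). The genes ckmt2a and ckmt2b, whose mammalian counterpart is the sarcomeric form of heart and skeletal muscle, were under 1 RPKM in every biological sample.

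The gene ckmt2a (ENSDARG00000069615, chromosome 10) had 21 reads in hair cell replicate 1, 1 read in the deeper replicate 2 and 33 reads in the surrounding cells. These gave 0.591 RPKM (95% exact Poisson interval 0.366 to 0.903), 0.00877 RPKM (0.000222 to 0.0489) and 0.862 RPKM (0.594 to 1.21). The interval of replicate 1 overlapped that of the surrounding cells, and that of replicate 2 lay below both. Replicate 1 was 68.0-fold above replicate 2 in mean RPKM, a value that rests on the single read in replicate 2. The gene ckmt2b (ENSDARG00000039929, chromosome 5) had 1 read and 0 reads in hair cell replicates 1 and 2, against 20 reads in the surrounding cells. The 0 in replicate 2 allows a level of up to 0.0228 RPKM, the upper limit of the 95% exact Poisson interval. Intervals and this limit cover counting error only, since reads were not collapsed to molecules. The ratio of ckmt1 to the sum of ckmt2a and ckmt2b was 7.01±0.61 on the log2(RPKM + 1) scale in hair cells, against 1.73 in the surrounding cells.

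The 7 creatine kinase genes together had 2254 and 2273 RPKM in hair cell replicates 1 and 2, against 105 RPKM in the surrounding cells, 21.5-fold higher in hair cells. They took 0.628% and 0.605% of summed RPKM in hair cell replicates 1 and 2, against 0.0355% in the surrounding cells. What differed besides the amount was the make-up. In hair cells, ckbb gave 93.0% and 92.2% of this sum in replicates 1 and 2, and ckmt1 gave nearly all of the rest with 6.79% and 7.64%. In the surrounding cells, ckbb gave 49.1%, ckba 26.1%, ckmb 9.70%, ckma 7.87% and ckmt1 6.09%. The muscle type pair thus made up 0.0937% and 0.0749% of creatine kinase RPKM in hair cell replicates 1 and 2, against 17.6% in the surrounding cells. The part of all cytosolic genes was alike, with 93.2% and 92.4% in hair cell replicates 1 and 2, against 92.7% in the surrounding cells, where the surrounding cell value lies between those of the replicates. The surrounding cells were 1 mixed sample, so that a mixture of cell types with 1 kinase each and cells with several cannot be told apart.

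**Figure D3:**
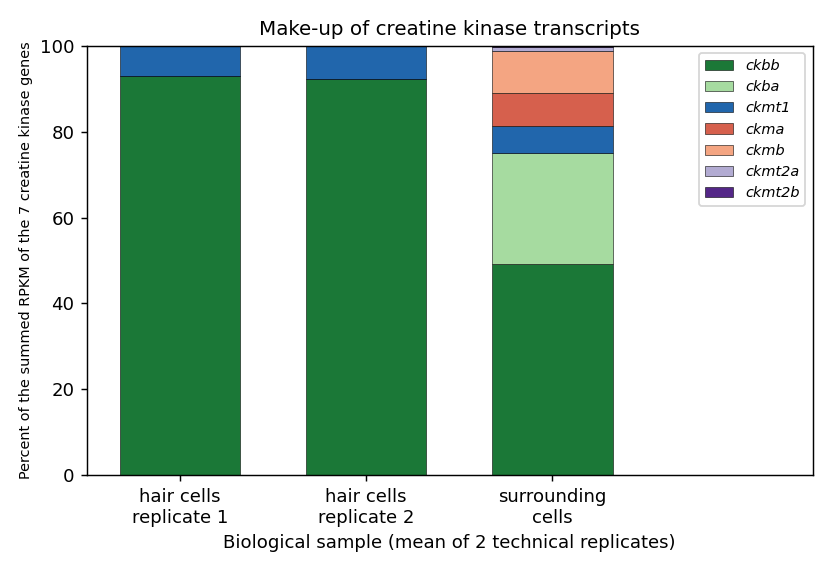
Percent of the summed RPKM of the 7 creatine kinase genes that came from each gene, as stacked bars for hair cell replicates 1 and 2 and the surrounding cells. The bars of the hair cell replicates are nearly all ckbb (93.0% and 92.2%) and ckmt1, whereas that of the surrounding cells also holds ckba (26.1%), ckmb (9.70%) and ckma (7.87%).

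The genes for uptake and synthesis of creatine went in opposite directions. The transporter gene slc6a8 (ENSDARG00000043646, chromosome 8) had 5.98 and 5.76 RPKM in the 2 libraries sequenced for hair cell replicate 1, 7.90 and 8.14 RPKM in those of replicate 2, and 0.844 and 0.799 RPKM in those of the surrounding cells. Both hair cell replicates lay above the single surrounding cell sample, where the gene had 60 reads. The log2 difference of slc6a8 was 2.11 (SE 0.32, limma adjusted p = 0.0201), and on the RPKM scale it was 8.45-fold higher in hair cells. This call was lost when no filter on low genes was applied (limma adjusted p = 0.0605). Over all alternatives that were tested, the adjusted p of slc6a8 lay between 0.000935 and 0.0605.

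The gene gamt (ENSDARG00000070844, chromosome 11), which encodes the methyltransferase of the last step of creatine synthesis, had 0.958 and 1.02 RPKM in the 2 libraries sequenced for hair cell replicate 1, 0.540 and 0.490 RPKM in those of replicate 2, and 10.8 and 11.4 RPKM in those of the surrounding cells. Both hair cell replicates were far below the single surrounding cell sample. On the log2 scale it differed by -2.80 (SE 0.32, limma adjusted p = 0.0117). The hair cell replicates were further apart for gamt than for most members, with 1.92-fold more in replicate 1. The ratio of gamt to slc6a8 on the RPKM scale was 0.168 and 0.0642 in hair cell replicates 1 and 2, against 13.5 in the surrounding cells. The gene gatm, which encodes the enzyme of the first step, had 0.606 and 0.249 RPKM in hair cell replicates 1 and 2, against 0.332 RPKM in the surrounding cells, and was not tested.

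Between the hair cell replicates the members differed by 0.00071 (ckbb) to 0.66 (ckmt2a) in absolute terms on the log2(RPKM + 1) scale, beside a median of 0.26 over all genes tested. The members ckmb, slc6a8, gamt and ckmt2a were the most apart. Of these, slc6a8 was higher in replicate 2 and the others in replicate 1.

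The genes around creatine metabolism were examined next, as a list of enzymes and transporters that handle arginine and methyl groups, on the side of supply or of use. Of 15 tested, 2 were higher and 5 lower in hair cells, beside 17.7% and 18.0% over all genes tested. The median log2 difference of the list was -0.35, beside 0.15 over all genes tested. The gene arg2, for an arginase, which breaks arginine down, had 261 and 239 RPKM in hair cell replicates 1 and 2, against 20.1 RPKM in the surrounding cells, giving a log2 difference of 3.57 (limma adjusted p = 0.00719). The lower genes included mat2ab and mat1a, which encode methionine adenosyltransferases that make the methyl donor of the gamt reaction, with log2 differences of -2.54 and -1.89. The gene bhmt, for a methyltransferase that remakes methionine, was lower with -1.33. Both mat1a and bhmt were under 1 RPKM in both hair cell replicates and passed the filter only through the surrounding cells. The paralog mat2aa had 12.5 and 10.7 RPKM in hair cell replicates 1 and 2, against 10.3 RPKM in the surrounding cells, and was not called. The count of lower genes was 2 with either other pseudocount or no filter, and 3 with the second technical column alone. It was 6 with recovered reads and 7 after median-ratio scaling. The count of higher genes was 1 after median-ratio scaling and 2 in the other alternatives with a test.

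Adenylate kinases, which move phosphate between adenine nucleotides, were listed with the subunits of the energy sensor AMPK and with AMP deaminases. Of 20 tested, 6 were higher and 1 lower (3 lower with recovered reads or after median-ratio scaling), with a median log2 difference of 0.44. The higher count was 4 with a pseudocount of 5 RPKM or no filter, and 7 with recovered reads. The shares over all genes tested were 17.7% higher and 18.0% lower by limma, with a median of 0.15. The cilium-linked adenylate kinase genes ak7a, ak8 and ak7b were higher, with log2 differences of 3.84, 3.77 and 3.27. These were among 4 of the 6 higher genes that were under 1 RPKM in the surrounding cells. Those 4 passed the filter only through the hair cells. The gene ak7a had 15.2 and 17.8 RPKM in hair cell replicates 1 and 2, against 0.216 RPKM in the surrounding cells. In contrast, ak1, the abundant cytosolic adenylate kinase gene, had 146 and 130 RPKM in hair cell replicates 1 and 2, against 168 RPKM in the surrounding cells, and was not called, with a log2 difference of -0.28 (SE 0.22). The AMPK gamma subunit gene prkag2a was higher by 4.14, with 69.0 and 87.5 RPKM in hair cell replicates 1 and 2, against 3.46 RPKM in the surrounding cells. The AMP deaminase gene ampd3b was the lower one, with -3.07.

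Another list held mitochondrial carriers and porins, through which ATP and phosphate pass, with the mitochondrial cyclophilins. By limma it had 3 of 8 tested genes higher and 0 lower, beside 17.7% and 18.0% over all genes tested. The fit of recovered reads called 2 higher and 0 lower, and 0 had a negative difference at an unadjusted p under 0.05. The porin gene vdac1, the partner of mitochondrial creatine kinase in mammals, had 201 and 203 RPKM in hair cell replicates 1 and 2, against 70.6 RPKM in the surrounding cells, giving a log2 difference of 1.50 (limma adjusted p = 0.0155). The cyclophilin gene ppifb and the ATP carrier gene slc25a6 were also higher, with 2.99 and 1.43, of which slc25a6 was not called with recovered reads. At 0.259 RPKM in the surrounding cells, slc25a6 passed the filter only through the hair cells. The main ATP carrier gene by level, slc25a5, had 2595 and 3527 RPKM in hair cell replicates 1 and 2, against 2539 RPKM in the surrounding cells, and was not called, with a log2 difference of 0.25 (SE 0.39).

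Globin genes other than mb and the haemoglobins were low. Of 4 found, only cygb1, a cytoglobin gene, was tested. It was lower in hair cells, with 0.479 and 0.0805 RPKM in hair cell replicates 1 and 2, against 2.03 RPKM in the surrounding cells. It passed the filter only through the surrounding cells. Its log2 difference was -1.26 (limma adjusted p = 0.0355), a call that was lost with other pseudocounts, without a filter, with a constant variance and in the second technical column alone. The neuroglobin gene ngb had 0.0238 and 0.0367 RPKM in hair cell replicates 1 and 2, against 0.395 RPKM in the surrounding cells. Haemoglobin transcripts were present in all samples. The red blood cell markers summed to 291 and 105 RPKM in hair cell replicates 1 and 2, against 389 RPKM in the surrounding cells, and none of 7 was called by limma, with 1 at an unadjusted p under 0.05 and 3 called lower in the fit of recovered reads. Their most abundant genes were ba1l, ba1, hbaa1 and alas2. The haemoglobin gene ba1l had 121 and 40.9 RPKM in hair cell replicates 1 and 2, against 173 RPKM in the surrounding cells. The summed level of these markers was 2.77-fold higher in replicate 1 than in replicate 2, and that of mb was 1.05-fold higher in replicate 2. These ratios come from 1 pair of samples, and the part of blood cells in the level of mb was not tested.

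**Figure D4:**
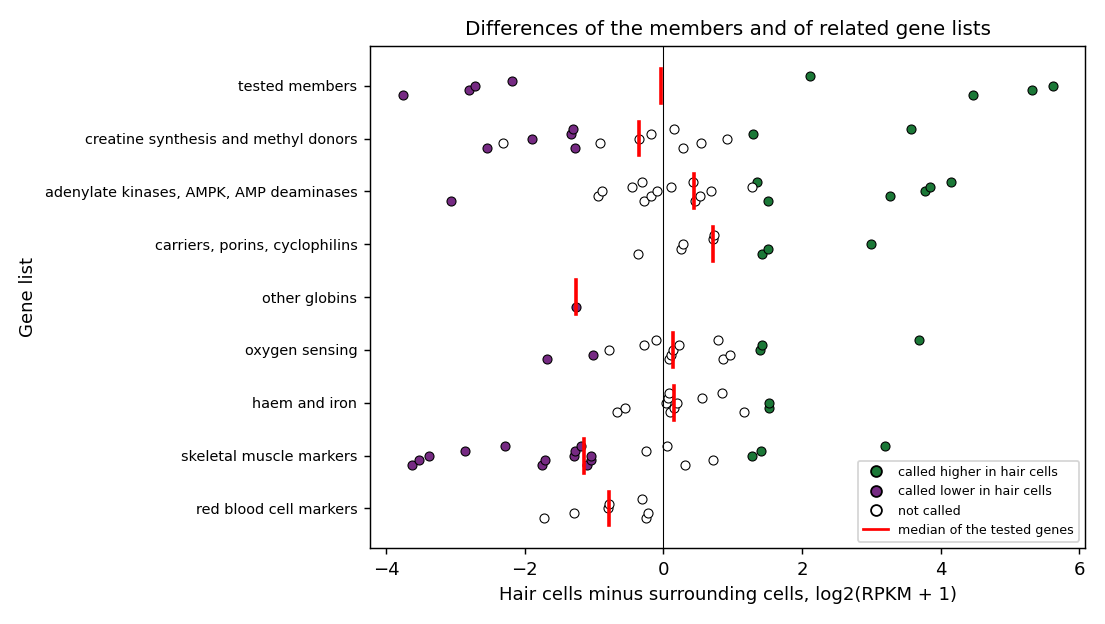
Log2 differences, hair cells minus surrounding cells on log2(RPKM + 1), of the tested members and of the tested genes of 8 related or marker lists, with called genes filled, other genes open and the median of each list as a red line. The tested members lie in separate lower and upper groups with none between -2.18 and 2.11, while most related lists hold genes near 0 as well. The untested members fall within this gap, ckmt2a with -0.23 and -0.88 and ckmt2b with -0.42 and -0.45 for hair cell replicates 1 and 2. Of the tested members, ckma, gamt and slc6a8 passed the filter only through the group in which they were high. The members and lists were chosen with earlier results of these data known, and this gap was not tested.

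The genes with the levels most like those of mb and ckbb were found by distance on log2(RPKM + 1) over the 3 biological samples. The glutamine synthetase gene glula was the nearest to both, at 1.91 from mb and 1.79 from ckbb, with 2520 and 3953 RPKM in hair cell replicates 1 and 2, against 150 RPKM in the surrounding cells. The next for mb were fosab_1, a gene of the AP-1 transcription factors, at 2.79, the mitochondrially encoded mt-atp8 at 2.84, ckbb at 3.14 and mt-nd4 at 3.15. The next for ckbb were cox7c, a cytochrome oxidase subunit gene, at 2.28, the glycolysis gene gapdhs at 2.39, the calmodulin gene calm1b at 2.58 and jun at 2.62. All of these had positive log2 differences, from 1.82 (mt-nd4) to 5.31 (ckbb). With 3 samples, such a distance describes level and direction and nothing finer.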

How the data were processed

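The authors mapped reads from SMART-Seq cDNA to build GRCz10 and deposited RPKM values, scaled only to mapped reads and gene length. Not given in the sources used here were the annotation release, the aligner, strand settings and the counter. Another 4 columns hold averages and standard deviations by the authors and were left aside, and 1 exact duplicate entry was dropped. Technical replicates were averaged on the RPKM scale. Genes with at least 1 RPKM in at least 1 biological sample were fitted on log2(RPKM + 1) with limma 3.58.1 in R 4.3.3, with a variance trend on mean expression. The fit had 1 residual degree of freedom and 3.42 after moderation. Mapped totals and whole reads (within 0.001 of a read, for 100% of genes tested) were recovered from the RPKM steps. The smallest fitting length was used, so that true reads of a gene may be a whole multiple of these. Recovered reads, other pseudocounts, filters, scalings, variance models and single technical columns were tried as alternatives, as was leaving out each hair cell replicate. A planned motif search of promoters was not run. The 10 members and the lists were chosen with earlier results of these data known. Named genes were all members, the 5 nearest genes of mb and of ckbb, up to 4 called genes of each related list with the largest absolute difference, and the 4 most abundant markers of muscle, heart and red blood cells. The genes gatm, sncb, neurod1, lyz, hmox2a, ampd3b, hif1ab, alas1, slc25a4, slc25a3a, tfr1a, ppox, mat2aa, ak1, slc25a5, ngb, mylpfa, smyhc1, casq1b, myl7, vmhc, cmlc1 and nppb were chosen after their values were seen. All 10 member identifiers were found in a current table of gene names.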

Additional observations from a re-analysis of the deposited data

How the results depend on the processing

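Every tested member kept its direction in all 12 alternatives, and in 95 of the 96 combinations of member and alternative it kept its call or, where there was no test, its direction, the exception being slc6a8 without a filter (limma adjusted p = 0.0605). The sizes of low members moved, with log2 differences of -4.31 to -1.29 for ckma, -4.22 to -1.49 for gamt, -4.70 to -2.41 for ckba, -2.88 to -1.23 for ckmb and 1.03 to 3.11 for slc6a8, each smallest in size with a pseudocount of 5 RPKM and largest with recovered reads. Neither a change of filter nor a constant variance alters a log2 difference, so that direction could not change there. Without hair cell replicate 1 or 2 there was no test, and the difference was simply that of the remaining replicate. The share of summed RPKM of the members in hair cells was then 2.75% to 2.77%. Genes called higher numbered 2799, and 1603 with a pseudocount of 5 RPKM and 1464 with no filter. Genes called lower numbered 2851, and 1225, 1740 and, with a filter of 5 RPKM, 1713. Higher genes were 49.5% of calls, 46.5% with recovered reads and 38.2% after median-ratio scaling, which shifted the median log2 difference of all genes from 0.15 to -0.14. With pseudocounts of 0.1 and 5 RPKM the log2 ratios in hair cells were 10.77 and 8.43 for ckbb over ckba, -1.60 and -0.26 for ckma over ckmb, 11.97 and 8.60 for ckbb over ckma, and 9.20 and 4.99 for ckmt1 over ckmt2a and ckmt2b, because at least 1 gene of each pair lies near the pseudocount. Leaving out a hair cell replicate gave 9.90 to 10.03, -0.90 to -0.71, 10.51 to 10.54 and 6.58 to 7.44 for these ratios. No paired analysis was possible because the groups share a single replicate number. Counting error limits the values of ckmt2a and ckmt2b, which had at most 33 reads in a sample. Both were left untested because they stayed under 1 RPKM, also in the deepest sample.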

Other observations

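Genes of oxygen sensing and of haem synthesis, which bear on the setting of myoglobin, had calls in both directions or few calls. Of 15 oxygen sensing genes tested, 3 were higher and 2 lower in hair cells, beside 17.7% and 18.0% over all genes tested. The median log2 difference of the list was 0.13, beside 0.15 over all genes tested. With a pseudocount of 5 RPKM 1 was higher and 1 lower, and with no filter none was lower. The carbonic anhydrase gene ca9, a known target of hypoxia-inducible factors in mammals, had 21.5 and 20.0 RPKM in hair cell replicates 1 and 2, against 0.698 RPKM in the surrounding cells, giving a log2 difference of 3.68 (limma adjusted p = 0.00719). The factor gene epas1a and the prolyl hydroxylase gene egln2 were higher with 1.43 and 1.39, and vhll was lower with -1.68. Of the higher genes, ca9 and epas1a were under 1 RPKM in the surrounding cells and passed the filter only through the hair cells. The lower gene other than vhll passed it only through the surrounding cells. The factor gene hif1ab had 47.4 and 31.5 RPKM in hair cell replicates 1 and 2, against 35.9 RPKM in the surrounding cells, and was not called. Of 13 haem and iron genes tested, 2 were higher and 0 lower by limma, beside 17.7% and 18.0% over all genes tested. With recovered reads 0 were lower too, and 1 gene had a negative difference with an unadjusted limma p under 0.05. The higher genes were cpox and fech, which encode late enzymes of haem synthesis, with log2 differences of 1.52 each. Both calls were lost with a pseudocount of 5 RPKM or no filter, and the fit of recovered reads called cpox and hmox2a but not fech. At 0.732 RPKM in the surrounding cells, fech passed the filter only through the hair cells. The entry enzyme gene alas1 had 79.3 and 68.6 RPKM in hair cell replicates 1 and 2, against 70.3 RPKM in the surrounding cells, giving a log2 difference of 0.07 (SE 0.22).

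Some low genes differed between the hair cell replicates. Besides ckmt2a, the ATP carrier gene slc25a4 had 0.967 and 0.0418 RPKM in hair cell replicates 1 and 2, against 0.871 RPKM in the surrounding cells. The phosphate carrier gene slc25a3a had 0.373 and 0.00650 RPKM in these replicates, against 0.269 RPKM in the surrounding cells. In the haem and iron list, tfr1a and ppox went the other way, but some other genes of that list did not. The gene tfr1a had 0.0537 and 0.489 RPKM in hair cell replicates 1 and 2, against 0.409 RPKM in the surrounding cells. For ppox the values were 0.265 and 0.675 RPKM, against 0.159 RPKM. The heart marker tnnt2a had 0.107 and 0.00834 RPKM in these replicates, against 0.345 RPKM in the surrounding cells, and the heart marker nppa had similar values of 0.0194 and 0.0119 RPKM, against 0.305 RPKM. The genes ckmt2a, slc25a4, slc25a3a, tfr1a and ppox were picked after their values were seen. All genes of this paragraph lie under the level required for testing.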
